A study of Mus musculus with 2 samples.

Results

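Kupffer cells are the resident macrophages of the liver, and the 10 genes described here (Clec4f, Vsig4, Cd5l, Timd4, Marco, C1qa, C1qb, C1qc, Id3 and Folr2) are those by which such cells are usually recognised. They were taken by gene symbol, each matching exactly 1 of the 32285 genes counted. The data came from 2 single-cell libraries of mouse liver, made with the droplet-based 3′ chemistry of 10x Genomics. One library was from control liver (titled WT, genotype label CTRL) and the other from N-LKO liver (genotype label NgBR KO), in which loxP-flanked Nus1 was deleted by a Cre driven from the albumin promoter, active in hepatocytes and not in macrophages. The number of mice behind each library is not given in the sources used here. Nus1 encodes NgBR, a subunit of the cis-prenyltransferase that makes dolichol, the lipid carrier of N-glycosylation. The mice were male, on a C57BL6 background, age-matched, and had been moved from standard chow to 16 weeks of the diet that the sample titles call HFD and the treatment labels call WD. Hepatocytes and nonparenchymal cells were recombined before loading, and the N-LKO suspension also received tumor cells, its tissue being labelled liver plus tumor. With 1 library per genotype, no test between genotypes was possible, and genotype, tumor tissue and library cannot be told apart. The intervals below are 95% intervals that cover counting error only. Unique molecular identifiers (UMIs) were summed per cell class and library, and levels are given as UMIs per 1000000 UMIs of the class (CPM).

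Kupffer cells line the liver sinusoids, where they clear bacteria, aged red cells and debris from portal blood. They are seeded before birth and renew locally, and cells derived from monocytes can take up the niche when resident cells are lost. Signals from neighbouring stellate and endothelial cells, among them Notch ligands, CSF1 or IL-34, and the BMP family ligands encoded by Gdf2 and Bmp10, are known to keep their gene program in place. Clec4f, a C-type lectin that binds desialylated glycans, is restricted to Kupffer cells in the mouse. Timd4, a phosphatidylserine receptor for apoptotic cells, is a common label of long-resident cells and is gained late by cells of monocyte origin. Marco is a class A scavenger receptor, Cd5l a secreted scavenger protein that inhibits apoptosis, and Folr2 a folate receptor. Vsig4 is a complement receptor for C3 fragments, C1qa, C1qb and C1qc encode the 3 chains of C1q, which starts the classical complement pathway, and Id3 is a helix-loop-helix inhibitor of transcription required for Kupffer cell identity.

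In the GENCODE M21 annotation of GRCm38, the genes of the C1q chains lay side by side on the minus strand of chromosome 4 within 18.7 kb, in the order C1qb, C1qc and C1qa, at chr4:136880129-136898803. Id3 was on the same chromosome at chr4:136143497-136145755. Timd4, at chr11:46810800-46844332 on the plus strand, spanned 33.5 kb, and Marco, at chr1:120474538-120505024 on the minus strand, spanned 30.5 kb. Clec4f was at chr6:83644542-83656187, Cd5l at chr3:87357881-87371073, Vsig4 at chrX:96247203-96293438 and Folr2 at chr7:101839988-101857194. Folr2 overlapped 2 annotated genes on the opposite strand, an antisense transcript and a pseudogene. The submitters' processing notes name mm9, so these positions locate the genes in the reference and were not used for counting.

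Promoter entries of RefSeq on GRCm38.p6 were found for 9 of the 10 genes. The 250 bases before the start are shown for 5 of them, because Timd4, Marco and Clec4f were the members lowest in N-LKO macrophage-like cells relative to WT, and Cd5l and C1qb were closer to their WT level. Capitals mark the core letters bound by PU.1 (GAGGAA) and the half-site bound by MAF proteins (TGCTGA) on either strand. PU.1 and MAF proteins are factors that shape macrophage gene programs.
Timd4 chr11:46810549-46810798 (plus strand): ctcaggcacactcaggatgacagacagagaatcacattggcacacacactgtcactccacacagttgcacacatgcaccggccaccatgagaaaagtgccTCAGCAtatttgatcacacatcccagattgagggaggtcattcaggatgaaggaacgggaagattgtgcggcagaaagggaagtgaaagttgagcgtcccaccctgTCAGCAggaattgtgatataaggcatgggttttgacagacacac
Marco chr1:120505025-120505274 (minus strand): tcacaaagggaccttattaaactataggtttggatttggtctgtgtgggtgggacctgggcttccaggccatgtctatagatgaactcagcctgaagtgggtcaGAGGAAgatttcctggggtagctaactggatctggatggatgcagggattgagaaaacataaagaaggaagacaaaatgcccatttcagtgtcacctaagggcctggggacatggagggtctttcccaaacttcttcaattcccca
Clec4f chr6:83656117-83656366 (minus strand): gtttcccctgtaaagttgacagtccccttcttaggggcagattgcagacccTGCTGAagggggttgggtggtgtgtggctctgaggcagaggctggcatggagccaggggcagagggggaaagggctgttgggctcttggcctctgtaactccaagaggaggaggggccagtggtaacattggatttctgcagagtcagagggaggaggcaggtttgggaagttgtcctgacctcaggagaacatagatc
Cd5l chr3:87357631-87357880 (plus strand): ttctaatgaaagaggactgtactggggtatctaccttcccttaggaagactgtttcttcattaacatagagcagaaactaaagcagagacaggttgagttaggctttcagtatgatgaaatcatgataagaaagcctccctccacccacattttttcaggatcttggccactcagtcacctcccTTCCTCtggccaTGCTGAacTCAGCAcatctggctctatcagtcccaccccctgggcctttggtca
C1qb chr4:136886201-136886450 (minus strand): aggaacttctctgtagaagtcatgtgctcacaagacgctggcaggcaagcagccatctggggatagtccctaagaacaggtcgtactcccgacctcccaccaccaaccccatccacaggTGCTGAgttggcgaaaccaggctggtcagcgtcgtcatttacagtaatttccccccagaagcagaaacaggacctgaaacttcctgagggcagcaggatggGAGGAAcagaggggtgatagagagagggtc
The PU.1 core occurred in the promoters of 6 of the 9 genes (Vsig4, Cd5l, Marco, C1qb, C1qc and Id3), and in 23.3% of all 32851 promoters of the same length. The MAF half-site occurred in 5 of the 9 (Clec4f, Cd5l, Timd4, C1qb and Folr2), and in 16.1% of all promoters. Timd4 held 2 MAF half-sites, 150 and 44 bases before the start, and no PU.1 core, whereas Marco held 1 PU.1 core 146 bases before the start and no MAF half-site. The core of RBPJ, the factor downstream of Notch (TGGGAA), was found in Clec4f and Marco and in 21.6% of all promoters, and the GC-rich core bound by BMP SMADs (GGCGCC) in 0 of the 9 and in 9.59% of all. None of the matches in these promoters overlapped another. These are letter matches, and no binding was measured.

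The deposited matrices held 100171 WT and 90147 N-LKO barcodes with 85522287 and 87575064 UMIs. After filters on UMIs, genes, mitochondrial share and doublet score, 18412 WT and 19810 N-LKO cells remained, with medians of 1400 and 1454 UMIs. The libraries shared 2499 barcode sequences, 117 of them among kept cells. Nus1, the targeted gene, stood at 73.2 CPM in WT against 38.4 CPM in N-LKO hepatocyte-like cells. It was at 83.1 and 89.0 CPM in macrophage-like, 74.5 and 55.4 CPM in T- and NK-like and 67.3 and 48.3 CPM in monocyte-like cells, and 3′ counts do not tell whether a read came from a deleted allele. The 10 members were left out of the genes used for clustering, of doublet scoring and of every marker list, so the classes were made without them. Macrophage-like cells were named from 12 other markers, all 12 of which were raised in the cluster that held 1538 of 1648 WT and 3311 of 3500 N-LKO macrophage-like cells. A cycling cluster held the others. They made up 19.4% (18.6 to 20.3) of the WT and 22.4% (21.8 to 23.1) of the N-LKO cells outside hepatocyte-like and unnamed clusters, with medians of 1383 and 1499.5 UMIs. The sums behind the levels were 2431661 WT and 5731430 N-LKO UMIs.

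Most members were highest in the class they are named for. Clec4f stood at 1422 CPM (1375 to 1470) in WT macrophage-like cells and at 45.1 CPM (37.0 to 54.4) in endothelial-like cells of the same library. In N-LKO the corresponding levels were 767 CPM (745 to 790) and 48.1 CPM (41.1 to 56.0). Of the 10 members, 9 in WT and 7 in N-LKO were at least 2-fold higher in macrophage-like cells than in every other unmixed class of 50 or more cells, against 2% and 1.43% of all genes at 5 CPM or more in those cells. The counts were 2 and 0 with cells from 500 UMIs, 0 and 0 without doublet removal, where an unnamed cluster with macrophage markers counted as another class, and 6 and 7 with free RNA subtracted. The highest other class for most members was an erythroid-like cluster of 51 WT and 119 N-LKO cells, in which 11 of the 12 macrophage markers were raised too. Against that cluster the N-LKO macrophage-like level was 1.98-fold higher for Clec4f and 1.77-fold for Vsig4. Against the median of the other unmixed classes, 9 members were between 11.99-fold (C1qb) and 18.1-fold (Folr2) higher in WT and between 9.07-fold (C1qb) and 25.9-fold (Marco) higher in N-LKO. The N-LKO value of Marco rests on a median of only 0.431 CPM in the other classes. Against B-like cells, its highest other class there, Marco was 2.58-fold higher.

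**Figure D1:**
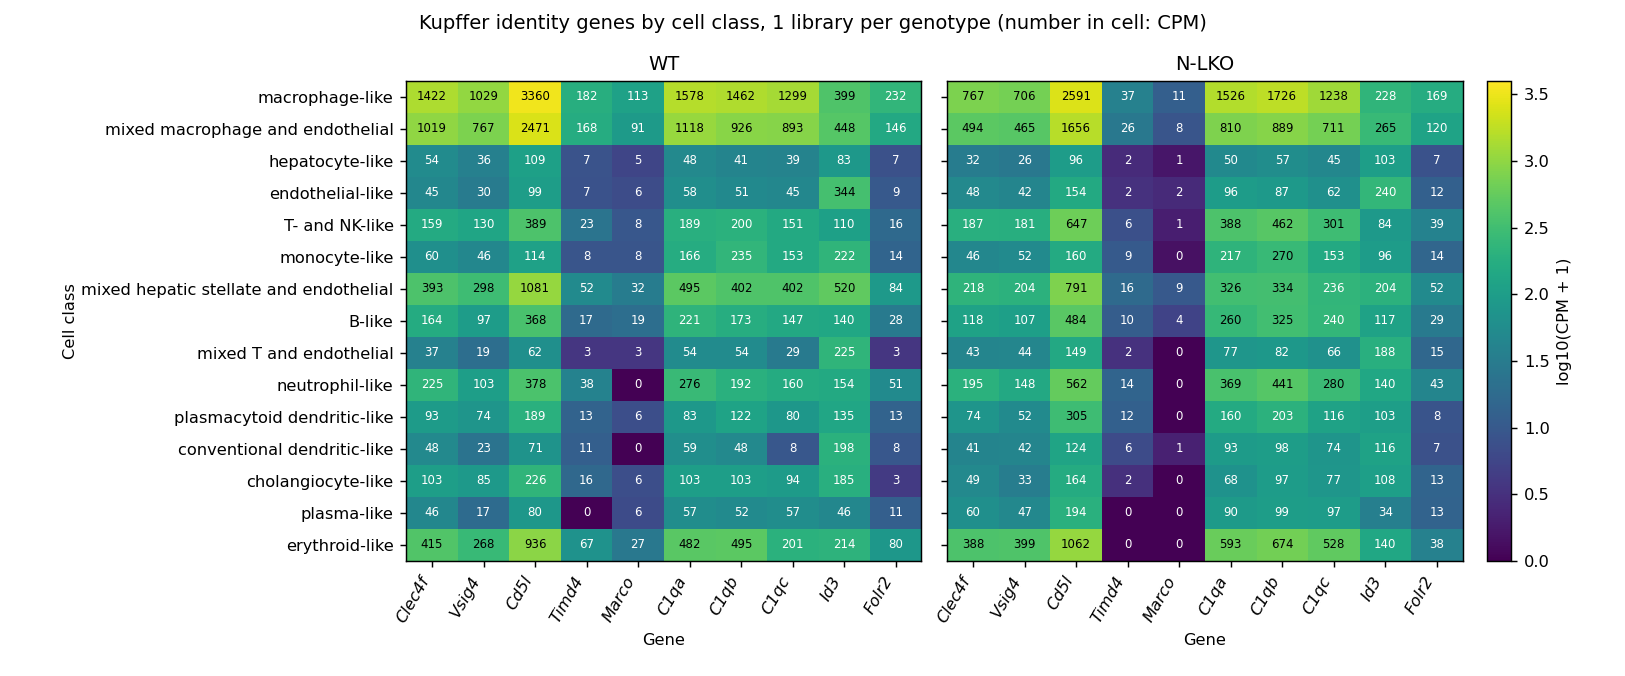
Heat map of the CPM of the 10 members (columns) in each class of 50 or more cells in both libraries (rows), WT on the left and N-LKO on the right, coloured by log10(CPM + 1). The macrophage-like row and the mixed macrophage and endothelial row are brightest, Id3 is also bright in endothelial-like cells, and the Timd4 and Marco columns are dark throughout N-LKO, with 37 and 11 CPM in macrophage-like cells.

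Id3 did not follow the class. It stood at 399 CPM in WT macrophage-like and 344 CPM (321 to 369) in WT endothelial-like cells, and at 228 and 240 CPM (224 to 257) in N-LKO. Macrophage-like cells therefore held 18.4% (17.4 to 19.5) of all Id3 UMIs of kept WT cells and 26.6% (25.3 to 27.8) in N-LKO. For the other 9 members this share lay between 48.7% (Timd4) and 53.2% (Folr2) in WT and between 52.9% (Timd4) and 59.1% (C1qb) in N-LKO. Macrophage-like cells contributed 8.38% and 17.3% of the UMIs of all kept cells, so the difference in share between libraries goes with a difference in how many such cells were kept. A cluster with both macrophage and endothelial markers, which was left out of the class, held a further 12.8% to 18.2% of the UMIs of those 9 members.

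The C1q genes were counted beyond the Kupffer gene program. In monocyte-like cells C1qb stood at 235 CPM (206 to 267) in WT and 270 CPM (249 to 292) in N-LKO, which was 6.40 and 4.13 times the level estimated from free RNA. Clec4f in the same cells was at 60.4 CPM (46.3 to 77.5) and 45.7 CPM (37.4 to 55.3), or 1.65 and 1.17 times the estimate. Per 100 C1q UMIs, monocyte-like cells held 10.9 Clec4f UMIs in WT and 7.15 in N-LKO, where macrophage-like cells held 32.8 and 17.1. Lymphoid classes gave another picture, since they carried Clec4f and C1q together. T- and NK-like cells held 29.5 Clec4f UMIs per 100 C1q UMIs in WT and 16.3 in N-LKO, close to the macrophage-like ratio of their own library. Their C1qb level was 5.06 and 7.03 times the free RNA estimate. The part that captured pairs of cells play in those counts was not tested.

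In macrophage-like cells the members divided between genotypes into those lower past 2-fold, those lower by less, and the C1q chains. Timd4 and Marco were lower by 2-fold or more in N-LKO, and 0 members were higher by that much. Of all 10814 genes at 5 CPM or more in either library, 6.32% were lower and 4.92% higher by 2-fold or more. The log2 ratio of N-LKO over WT was below 0 for 9 members, against 56.5% of all genes. The whole interval was below 0 for 8 and above 0 for 1, against 22.5% and 15% of all genes. The median log2 ratio was -0.50 over the members and -0.07 over all genes. With cells of at least 2000 UMIs and mixed clusters led by macrophage markers taken in, these medians were -0.051 and -0.095.

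**Figure D2:**
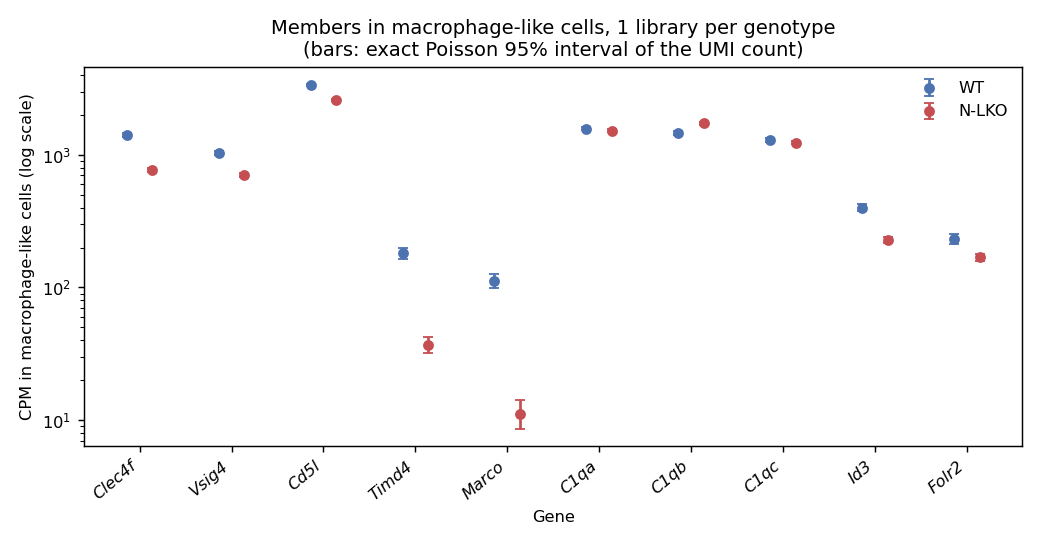
Level of each member in macrophage-like cells (y axis, CPM, log scale) for the WT and the N-LKO library, with exact Poisson intervals of the UMI count. The WT and N-LKO points of Timd4 (182 and 36.8 CPM) and Marco (113 and 11.2 CPM) lie far apart, while those of C1qa (1578 and 1526 CPM) nearly coincide.

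Among the members that serve uptake, Marco differed most. It gave 274 UMIs in WT macrophage-like cells and 64 in N-LKO, or 113 CPM (99.7 to 127) and 11.2 CPM (8.60 to 14.3). The N-LKO level was 10.0-fold lower, with a log2 ratio of -3.33 (-3.75 to -2.94), and 16 of the genes tested had a lower ratio. Timd4 gave 442 and 211 UMIs, or 182 CPM (165 to 200) and 36.8 CPM (32.0 to 42.1). It was 4.93-fold lower in N-LKO, with a log2 ratio of -2.30 (-2.55 to -2.06), and 68 genes had a lower ratio. Both scavenging receptors were thus in the lowest part of the distribution of all genes. Clec4f, the lectin, was at 54.0% of its WT level, with a log2 ratio of -0.89 (-0.95 to -0.83). Folr2 was at 232 CPM in WT against 169 CPM in N-LKO, with a log2 ratio of -0.46 (-0.61 to -0.30). Cd5l was at 3360 and 2591 CPM, with a log2 ratio of -0.38 (-0.41 to -0.34).

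Of the complement genes, the C1q chains were nearest to their WT level. Vsig4, the receptor, stood at 1029 CPM in WT against 706 CPM in N-LKO, with a log2 ratio of -0.54 (-0.62 to -0.47). C1qa was at 1578 and 1526 CPM, with an interval of the log2 ratio that included 0 (-0.10 to 0.01). C1qc was at 1299 and 1238 CPM, with a log2 ratio of -0.07 (-0.13 to -0.01). C1qb was the member higher in N-LKO, at 1462 CPM in WT against 1726 CPM in N-LKO, with a log2 ratio of 0.24 (0.18 to 0.30). The chains therefore did not keep the same proportions in macrophage-like cells. C1qb made up 33.7% of the C1q UMIs of WT macrophage-like cells and 38.4% of those of N-LKO, while C1qa went from 36.4% to 34.0% and C1qc from 29.9% to 27.6%. A higher C1qb share in N-LKO was not particular to macrophage-like cells. It went from 31.8% to 37.5% in hepatocyte-like cells and from 31.5% to 36.9% in the cluster with macrophage and endothelial markers. In monocyte-like cells and some smaller classes the share was not higher (42.4% and 42.1% in monocyte-like cells). Barcodes under 500 UMIs did not show that shift either. There C1qb made up 36.8% (34.5 to 39.1) in WT and 36.4% (34.5 to 38.4) in N-LKO, and C1qa 35.0% and 37.0%. Id3, the regulator, was at 399 CPM in WT against 228 CPM in N-LKO, with a log2 ratio of -0.81 (-0.93 to -0.69).

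**Figure D3:**
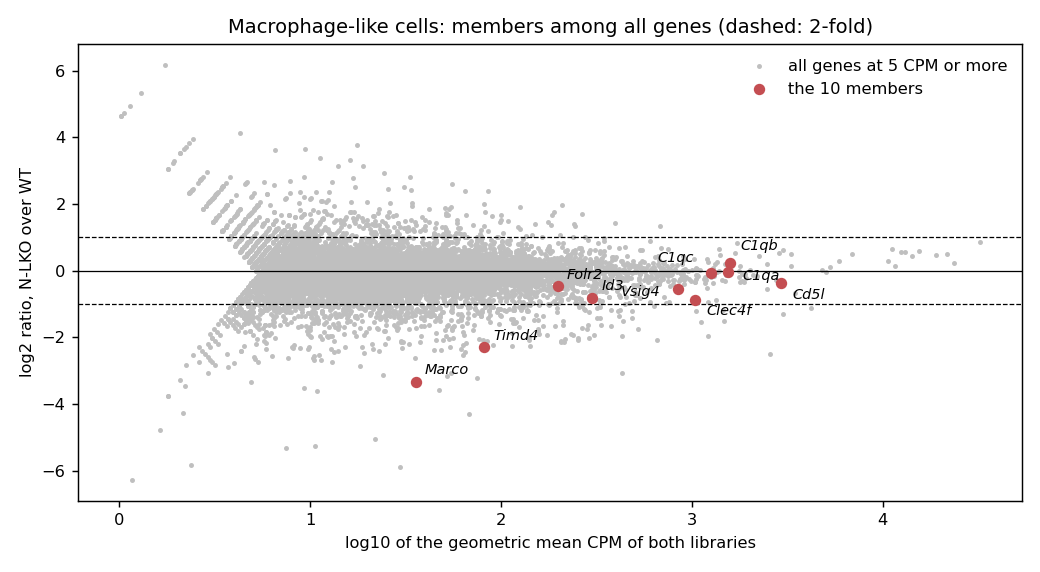
Log2 ratio of N-LKO over WT in macrophage-like cells (y axis) against the log10 of the geometric mean CPM of both libraries (x axis), for the 10814 genes at 5 CPM or more (grey) and the 10 members (red). Marco (-3.33) and Timd4 (-2.30) lie below the dashed line of a 2-fold lower level, and the other 8 members lie between the dashed lines.

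Timd4 and Marco were lower relative to Clec4f also in the N-LKO barcodes under 500 UMIs, a measure that does not depend on how cells were clustered. The deposited matrices held no barcode below 326 UMIs in WT or 377 UMIs in N-LKO. How much of this pool is free RNA and how much shallow cells was not tested. In barcodes under 500 UMIs there were 11.6 Timd4 UMIs per 100 Clec4f UMIs in WT and 5.65 in N-LKO. Marco per 100 Clec4f UMIs was 9.94 and 2.45. In macrophage-like cells the same ratios were 12.8 and 4.80 for Timd4 and 7.92 and 1.46 for Marco. Clec4f per 100 C1q UMIs in the barcodes under 500 UMIs was 36.7 in WT and 21.7 in N-LKO.

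The levels were also read cell by cell, after each cell was thinned to 1000 UMIs, the minimum that every kept cell held. At that depth a Clec4f UMI was found in 61.5% (59.1 to 63.8) of WT and 35.7% (34.2 to 37.4) of N-LKO macrophage-like cells. Timd4 was found in 15.9% (14.2 to 17.8) and 2.86% (2.33 to 3.46), and Marco in 7.34% (6.13 to 8.71) and 0.714% (0.463 to 1.05). In B-like cells, taken for comparison, the shares were 10.3% and 8.37% for Clec4f, 1.56% and 1.06% for Timd4, and 1.56% and 0.398% for Marco, at median depths of 1233.5 and 1362 UMIs before thinning. Whether B-like cells make any of these transcripts themselves was not tested. The interval of Marco in N-LKO macrophage-like cells overlapped that of B-like cells (0.0822 to 1.16) and lay above that of endothelial-like cells (0.0455 to 0.427). Some C1q was nearly universal. At least 1 of the chains was counted in 96.1% of WT and 94.9% of N-LKO macrophage-like cells, and C1q without Clec4f in 36.2% and 60.1%. The median number of members seen per cell was 5 in WT and 4 in N-LKO. Without thinning, Timd4 was counted in 19.8% and 4.66% of the cells and Clec4f in 67.2% and 42.2%.

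**Figure D4:**
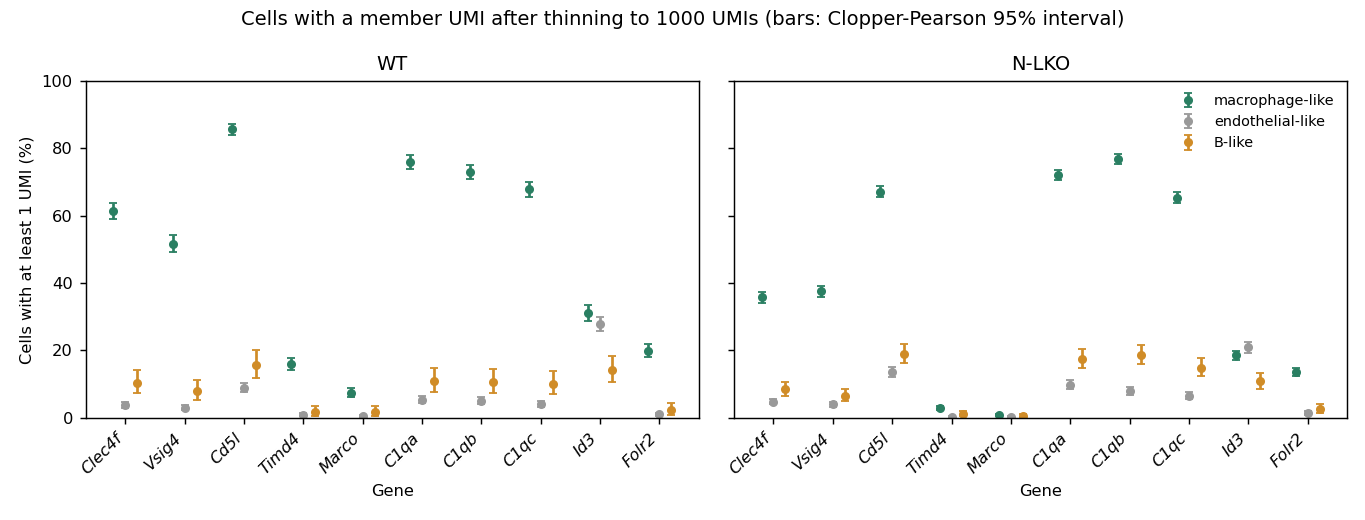
Percentage of cells with at least 1 UMI of each member after thinning to 1000 UMIs (y axis), in macrophage-like, endothelial-like and B-like cells of the WT (left) and N-LKO (right) library, with Clopper-Pearson intervals. The macrophage-like points stand above those of the other classes for every member in WT and for all but Id3 in N-LKO. Their intervals overlap those of endothelial-like cells for Id3 in WT and those of B-like cells for Marco in N-LKO. Timd4 and Marco drop from 15.9% and 7.34% in WT to 2.86% and 0.714% in N-LKO.

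Timd4 and Marco were lower also among cells that carried Clec4f. Of the 1013 WT macrophage-like cells with a Clec4f UMI, 231 had Timd4 (22.8%, 20.3 to 25.5), and of the 1251 such N-LKO cells 76 had it (6.08%, 4.82 to 7.55). Marco was found in 10.7% (8.83 to 12.7) and 1.60% (0.979 to 2.46) of the same cells. For Vsig4, Cd5l and Folr2 the intervals of both libraries overlapped, for Cd5l only narrowly. Vsig4 was found in 66.4% (63.4 to 69.3) and 67.5% (64.9 to 70.1) of the cells with Clec4f. Cd5l was found in 94.4% (92.8 to 95.7) and 91.4% (89.8 to 92.9), and Folr2 in 27.2% (24.5 to 30.1) and 25.5% (23.1 to 28.01). Among cells without a Clec4f UMI, Vsig4 was found in 28.2% (24.7 to 31.9) of WT and 20.9% (19.2 to 22.6) of N-LKO cells. In WT, Marco was found in 16.0% (11.8 to 21.0) of cells with Timd4 and 5.70% (4.54 to 7.05) of cells without it.

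Macrophage-like cells of each library were then clustered again on their own, without the members, into 4 WT and 8 N-LKO subclusters. Those sharing at least 3 of their 12 leading genes were paired across libraries, a step chosen after the data had been seen, and 4 pairs were found. One pair was led by C6, Fcna, Kcna2, Cdh5 and Icos (735 WT and 988 N-LKO cells) and is called C6-led here. Another was led by Cx3cr1, Negr1 and Sirpb1a (605 and 938 cells) and another by Mmp12, Atp6v0d2, Chst11, Fabp5, Gpnmb and Anxa1 (208 and 801 cells). The last was led by the cell cycle genes Top2a and Mki67 (100 and 176 cells). The remaining 4 N-LKO subclusters, of 31 to 279 cells, had no WT partner.

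In both libraries Clec4f, Cd5l and Timd4 were higher in C6-led cells than in any other subcluster. They held 66.7% of the Clec4f UMIs of WT macrophage-like cells, 81.4% of the Timd4 and 82.8% of the Marco UMIs, and in N-LKO 60.4%, 58.8% and 46.9%. Within this pair Clec4f was at 2304 CPM in WT against 1646 CPM in N-LKO, with a log2 ratio of -0.49 (-0.57 to -0.40). Cd5l was at 4353 and 4312 CPM, with an interval that included 0 (-0.07 to 0.04), and so did the interval of Folr2 (-0.34 to 0.04). Timd4 was at 359 and 76.9 CPM, a log2 ratio of -2.22 (-2.53 to -1.93). Marco was at 227 and 18.6 CPM, a log2 ratio of -3.59 (-4.21 to -3.05). These 2 were the members past 2-fold in that pair, where 10.4% of all genes were lower by as much.

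**Figure D5:**
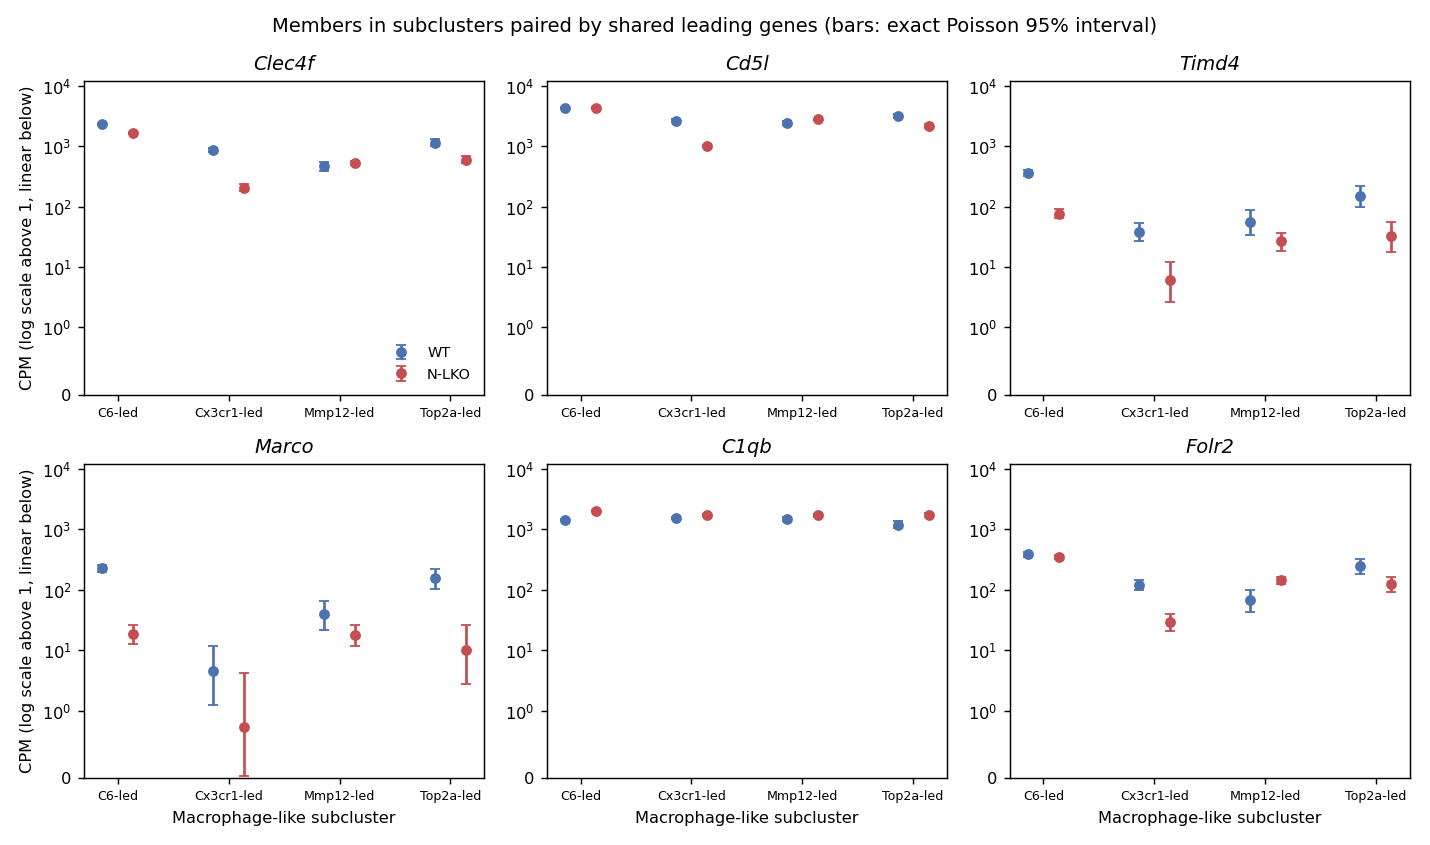
Level of 6 members (y axis, CPM, log scale above 1 and linear below) in the 4 pairs of macrophage-like subclusters (x axis, named by a leading gene), WT and N-LKO, with exact Poisson intervals. Timd4 is lower in N-LKO in each pair, from 359 to 76.9 CPM in C6-led cells, C1qb is higher in each pair, and Clec4f, Cd5l and Folr2 are lowest in the Cx3cr1-led N-LKO cells.

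Timd4 was lower by more than 2-fold in the other 3 pairs too. Its log2 ratio was -2.59 (-3.98 to -1.52) in Cx3cr1-led, -1.11 (-1.91 to -0.23) in Mmp12-led and -2.15 (-3.25 to -1.18) in Top2a-led cells. Of all genes, 14.7% in the Mmp12-led and 23.4% in the Top2a-led pair were lower by 2-fold or more. Marco was at -1.16 (-2.14 to -0.08) in the Mmp12-led pair, where neither gene had an interval wholly past 2-fold. In the Top2a-led pair Marco was at -3.78 (-5.90 to -2.42), on 29 WT and 4 N-LKO UMIs. In Cx3cr1-led cells it rested on 4 WT and 1 N-LKO UMIs, too few to read. Cx3cr1-led cells differed most over the whole set. There 6 of the 9 members at 5 CPM or more in either library were lower by 2-fold or more, against 11.05% of all genes, with Clec4f at 868 CPM in WT against 207 CPM in N-LKO, Cd5l at 2663 and 1008 CPM, Folr2 at 120 and 29.5 CPM and Id3 at 469 and 166 CPM. The C1q chains in the same cells had log2 ratios of 0.07 for C1qa, 0.16 for C1qb and -0.18 for C1qc. The Cx3cr1-led pair shared 3 leading genes, the minimum used for pairing, and its sides differed in other genes. Ccr2 was at 84.4 CPM on the WT side and 223 CPM on the N-LKO side, and Gpnmb at 109 and 418 CPM. Whether both sides hold the same kind of cell was not tested. In Mmp12-led cells Clec4f (463 and 526 CPM), Vsig4 (486 and 630 CPM) and Cd5l (2410 and 2776 CPM) were not lower in N-LKO, and Folr2 was higher, at 67.8 and 144 CPM. The N-LKO subcluster without a partner that was led by Cxcl2, Cxcl10 and Tnf held Clec4f at 411 CPM and C1qb at 1470 CPM, with 0 Marco UMIs.

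Other genes of the Kupffer program moved on the same side. Of 17 further Kupffer cell genes, all measured, 4 were lower by 2-fold or more, against 6.32% of all genes, and 0 higher, against 4.92%. Of the 17, 15 had a log2 ratio below 0, where 56.5% of all genes did, and the median of the 17 was -0.67. Cd163, the haptoglobin and hemoglobin scavenger receptor, stood at 224 CPM in WT against 3.66 CPM in N-LKO (545 and 21 UMIs), a log2 ratio of -5.90 (-6.64 to -5.31). Fcna, which encodes ficolin-A of the lectin complement pathway, was at 338 and 89.3 CPM. Id1, the closest relative of Id3, was at 75.7 and 31.9 CPM, and Spic, a regulator of iron-recycling macrophages, at 129 and 57.4 CPM. Slc40a1, the iron exporter ferroportin, was at 1695 and 879 CPM and Fabp7 at 272 and 273 CPM. Cd163, Slc40a1, Adgre1 and Hmox1 of this list were also among the markers that named the class.

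Genes of monocytes and of lipid-associated macrophages stood on the other side. Of 9 monocyte genes measured, 5 were higher by 2-fold or more in N-LKO macrophage-like cells and 0 lower. Of all genes, 4.92% were higher and 6.32% lower by as much. Among the 5 were F13a1 (6.17 and 43.8 CPM), Vcan (1.23 and 8.20 CPM), Chil3 (2.47 and 9.07 CPM) and Ccr2 (54.7 and 113 CPM). The 10 monocyte genes listed summed to 290 and 487 CPM in macrophage-like cells, and to 265 and 492 CPM in barcodes under 500 UMIs. Of 9 genes known from lipid-associated macrophages, which gather in fatty liver, 6 were higher by 2-fold or more and 0 lower. These were Spp1, or osteopontin (37.0 and 195 CPM), Cd63 (106 and 416 CPM), Cd9 (50.2 and 158 CPM), Gpnmb (239 and 650 CPM), the lipid receptor Trem2 (114 and 296 CPM) and Fabp5 (154 and 388 CPM). All of these genes could enter the clustering, unlike the members.

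Partners and relatives of the members showed no common direction. Of all genes in macrophage-like cells, 6.32% were lower and 4.92% higher by 2-fold or more. In lists this short, 0 or 1 gene past 2-fold is close to what those shares give. Of 10 complement partners, C2 was lower by 2-fold or more (27.96 and 12.7 CPM) and Itgam, a subunit of complement receptor 3, was higher (21.0 and 48.3 CPM), while C3 was at 206 and 394 CPM. The C3 difference was not particular to macrophage-like cells. C3 was at 264 and 549 CPM in T- and NK-like and 761 and 1611 CPM in hepatocyte-like cells, but at 2897 and 2720 CPM in mesothelial-like cells. Of 7 paralogs measured, Id1 was lower and Havcr2, the Timd4 relative that encodes TIM-3, was higher, at 14.8 and 40.1 CPM. Cd207, a C-type lectin next of kin to Clec4f, was at 133 and 86.5 CPM, and Msr1, a scavenger receptor related to Marco, at 474 and 404 CPM. None of the 14 niche receptors and transcription factors was past 2-fold in either direction. Of the 14, 9 had a log2 ratio below 0, near the 56.5% of all genes that did. The log2 ratios ran from -0.73 for Rxra (114 and 68.6 CPM) to 0.98 for the TGF-beta receptor gene Tgfbr1 (248 and 491 CPM). Spi1, which encodes PU.1, was at 248 and 242 CPM, and Maf at 662 and 467 CPM. Among the 12 stress-responsive genes listed (immediate early and heat shock), 1 was higher by 2-fold or more (Fosb, 20.6 and 51.5 CPM) and 0 were lower.

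Ligands of the Kupffer niche were counted mainly outside macrophage-like cells. In those cells 4 of 9 were measured. Csf1 (1.23 and 6.46 CPM) and Jag1 (2.06 and 6.80 CPM) were higher past 2-fold, on 3 and 5 WT UMIs. Of all genes, 4.92% were higher by as much. Bmp2 (12.7 and 14.5 CPM) and Tgfb1 (101 and 119 CPM) were not past 2-fold. The cluster with stellate and endothelial markers (906 WT and 625 N-LKO cells) held Gdf2 at 152 CPM in WT against 59.0 CPM in N-LKO, giving a log2 ratio of -1.36 (-1.78 to -0.97). Bmp10 in that cluster was at 49.0 and 14.5 CPM, a log2 ratio of -1.72 (-2.63 to -0.97), and Bmp2 at 344 and 163 CPM. Il34 there was at 93.8 and 131 CPM, and Csf1 at 76.5 and 41.8 CPM, a log2 ratio of -0.86 (-1.39 to -0.38). In endothelial-like cells the Notch ligand Dll4 was at 34.7 and 40.7 CPM and Jag1 at 20.04 and 48.1 CPM. Csf1 in endothelial-like cells was at 35.1 and 23.2 CPM, a log2 ratio of -0.60 (-1.05 to -0.14), and Bmp2 at 585 and 353 CPM. The share of all genes past 2-fold was not computed for the mixed cluster or for endothelial-like cells. Whether the make-up of the mixed cluster moved with these values was not tested.

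Across 40 points (clusters split by library, each of 50 or more cells), the genes whose levels were most like the mean of the members were Hmox1 (Pearson's r = 0.97), Sdc3, Wfdc17, Il18bp, Slc40a1, Adgre1, Lgmn, Fabp7, Siglec1 and Ctsc (r = 0.91), of 17281 genes ranked. The points share libraries and free RNA, and some of these genes named the class, so this is a description. Among the members the correlation with that mean, which each of them enters, ran from 0.97 for Cd5l and Clec4f down to 0.72 for Marco and 0.69 for Id3.

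Other measures differed between the macrophage-like cells of the libraries. Mitochondrial genes held 11.2% of their UMIs in WT and 15.4% in N-LKO, and the estimated share of free RNA was 35.4% and 32.3%. The 10 hepatocyte markers summed to 13720 and 7932 CPM and the 10 endothelial markers to 513 and 404 CPM, with none of either list at 0. The 9 T cell markers summed to 29.6 CPM with 1 of them at 0 and to 79.4 CPM with 0 at 0, and the 6 erythroid markers to 54.7 and 19.7 CPM with 1 at 0 in each. The 6 plasmacytoid dendritic markers summed to 20.6 and 104 CPM with 1 at 0 in each, the 6 plasma cell markers to 38.2 and 119 CPM with 0 at 0, the 7 B cell markers to 18.5 CPM with 1 at 0 and 38.9 CPM with 0 at 0, and the 9 neutrophil markers to 52.2 CPM with 2 at 0 and 95.4 CPM with 0 at 0. Longer genes had higher ratios, with a median log2 ratio of -0.26 for genes of about 4.98 kb and 0.17 for those of about 132 kb. The bin that holds Timd4 and Marco had a median of -0.11. Their part in the members' ratios was not tested.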

How the data were processed

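Per the file headers, the authors' matrices were made with cellranger 7.1.0, and the submitters' notes name Cell Ranger, Seurat and mm9. The deposited values are raw UMI counts per gene and barcode, with no normalization. The annotation version is not given in the sources used here. From these counts, barcodes with at least 1000 UMIs, at least 400 genes and at most 30% mitochondrial UMIs were kept. Doublet scores came from Scrublet in scanpy 1.11.5, and cells scoring above 0.25 were removed (1746 of 20158 WT and 2404 of 22214 N-LKO). The kept cells of both libraries were clustered together (Leiden, resolution 0.3, leidenalg 0.10.2, Python 3.11.15) without the 10 members, and clusters were named "-like" from marker lists without them. Clusters with markers of more than 1 class were called mixed and left out of every class.

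UMIs were summed per class and library. With 1 library per genotype no p-value was computed. Levels have exact Poisson, shares Clopper-Pearson and ratios exact conditional binomial intervals (SciPy 1.17.1). A difference was called past 2-fold among genes at 5 CPM or more in either library. Free RNA was profiled from barcodes under 500 UMIs, the smallest of which held 326 UMIs in WT and 377 in N-LKO. Every free RNA estimate rests on that pool, which may include shallow cells. All 10 members are named, and from each list the genes past 2-fold and up to 4 others, with the 10 genes whose profile correlated best with the members' mean. Values of some listed genes are not reported here. The members and lists were chosen with earlier results of these data known. Alternatives included scaling factors of edgeR 4.0.16 and DESeq2 1.42.0 (R 4.3.3), used for scaling only. The steps were tested on simulated data with known changes.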

Additional observations from a re-analysis of the deposited data

Results flagged for a closer look

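Barcodes with at least 500 but under 1000 UMIs entered no class, yet they carried the members above the limit that a count of 0 allows. In WT the 10 members summed to 31759 UMIs over 56087 such barcodes, or 845 CPM, and in N-LKO to 34864 UMIs over 46124 barcodes, or 1073 CPM. Within them Timd4 was at 13.8 CPM in WT against 5.32 CPM in N-LKO (517 and 173 UMIs), and Marco at 11.4 and 1.97 CPM (427 and 64 UMIs). Clec4f was at 97.2 CPM in both libraries and C1qb at 100 and 178 CPM. How much of this is free RNA and how much shallow cells was not tested.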

How the results depend on the processing

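No paired analysis was possible because each genotype has 1 library, both labelled replicate 1, and for the same reason no replicate could be left out. Of 17 alternatives, 13 were planned and 4 were added after the data had been seen. Among 150 member ratios recomputed under 15 of them, 50 moved beyond their counting interval. A reversal was looked for only in members past 2-fold in the main setting, Timd4 and Marco, and 0 of their ratios reversed. Timd4 (log2 ratio -2.53 to -1.42) and Marco (-3.69 to -3.09) were lower by 2-fold or more in all 15. Clec4f ran from -1.09 to -0.41 and passed 2-fold in 3, and C1qb ran from 0.07 to 0.43. Vsig4 (to 0.01), Folr2 (to 0.16), C1qa (-0.26 to 0.26) and C1qc (-0.25 to 0.12) crossed 0 in at least 1.

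The median over the members was -0.62 at a minimum of 500 UMIs, -0.62 with no mitochondrial limit and -0.66 without doublet removal. At 2000 UMIs and at a 10% mitochondrial limit no cluster could be named macrophage-like. With mixed clusters led by macrophage markers taken in, it was -0.051, where the median over all genes was -0.095, and -0.35. The count of members 2-fold above every other class was 2 in WT and 0 in N-LKO at 500 UMIs and 0 and 0 without doublet removal, where an unnamed cluster with 11 macrophage markers raised stood as another class. The share of the members' UMIs in macrophage-like cells, in WT and N-LKO, was 53.3% and 70.1% at 500 UMIs, 56.7% and 81.8% at 2000 UMIs, 75.8% and 83.8% at the 10% limit, 50.6% and 62.7% with no limit, 46.5% and 55.0% without doublet removal, and 50.7% and 61.7% with free RNA subtracted. In N-LKO it was 56.3% at a resolution of 1.0 and 57.3% with the members among the clustering genes. Timd4 among WT cells with Clec4f was 18.2% at the 10% limit, 27.9% without thinning and 25.8% at 2000 UMIs, and in N-LKO 9.34% and 10.8% for the last 2. The share of all genes lower by 2-fold was 12.2% with no CPM minimum. Apart from the constructions named, the cause was not tested. Counts limit Marco most, which rests on 64 N-LKO UMIs.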

Other observations

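In N-LKO monocyte-like cells Timd4 and Marco parted. Timd4 gave 22 UMIs there, or 9.49 CPM against 2.20 CPM estimated from free RNA, while Marco gave 0.43 CPM. In WT monocyte-like cells both stood at 7.80 CPM, on 8 UMIs each, with a free RNA estimate of 4.27 CPM for Timd4. The parting was not particular to monocyte-like cells. In N-LKO neutrophil-like cells Timd4 stood at 13.6 CPM (7.62 to 22.5) and Marco at 0 CPM. The pattern was noticed in the values and rests on few UMIs.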
